A study of Mus musculus with 8 samples.

Results

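The genes described here are 42 genes of the synaptic vesicle and of its exocytosis, taken by gene symbol from the 37558 genes of a count table of mouse P19 cells. P19 is an embryonal carcinoma line that can be driven to neurons or to muscle in culture. Cells were transduced with lentivirus and then kept in a neuronal culture medium, a treatment that all groups share, the GFP control included. The groups were GFP, MyoD, NeuroD2, a chimera (a MyoD protein whose bHLH DNA-binding domain was exchanged for that of NeuroD2), and 2 mutants of the chimera that the labels call WC and WCS. The chimera and WCS were each measured a further time at a multiplicity of infection of 100, written here as chimera MOI 100 and WCS MOI 100. The labels do not say what WC and WCS change, nor which multiplicity the other 6 libraries had. Each of the 8 groups is 1 library from 1 line, so no comparison of single libraries below has a replicate check.

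Neurons release transmitter by fusing small vesicles with the plasma membrane. The SNARE proteins of vesicle and membrane pull the bilayers together, complexins and calcium-binding synaptotagmins hold and trigger that step, and NSF with its SNAP adaptors takes the spent complex apart. Rab3 proteins, RIM, RIM-binding protein, Munc13 and the large scaffolds bassoon and piccolo bring vesicles to the active zone, and dynamin, amphiphysins and clathrin adaptor proteins retrieve the membrane afterwards. The members were set out by these roles: 9 SNARE and fusion genes, 8 calcium sensors, 9 genes of the vesicle membrane and the synapsins, 11 genes of Rab3, the active zone and priming, and 5 genes of endocytosis.

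The libraries held between 26410500 (chimera) and 43984066 counts (GFP). Levels are given in CPM, the counts scaled to a common library size after TMM scaling, and 5 CPM rests on at least 130 counts. Of the 42 members, 39 reached 1 CPM in a library and 37 reached 5 CPM. Syt5, Sv2c and Rims1 stayed under 1 CPM everywhere (at most 0.721, 0.439 and 0.564 CPM). Reads of Myod1, which can come from a delivered coding sequence, were 0.681 CPM in GFP, 296 CPM in MyoD, 116 CPM in the chimera, 555 CPM in chimera MOI 100, 106 CPM in WC, 77.3 CPM in WCS, 857 CPM in WCS MOI 100 and 0.804 CPM in NeuroD2. Neurod2 reads were 179.8 CPM in NeuroD2, 73.3 CPM in chimera MOI 100 and 130 CPM in WCS MOI 100, against 2.5 CPM in GFP, 0 in MyoD and 13.8 to 15.8 CPM in the other 3. The summed level of 10 neuron markers, all of them detected in every library, was 441 CPM in GFP, 294 in MyoD, 772 in the chimera, 2509.7 in chimera MOI 100, 2045 in WC, 2293 in WCS, 5357 in WCS MOI 100 and 3562 in NeuroD2. Single neuron markers did not all follow the sum. In the chimera, the ratio over GFP was 0.364 for Nefl, 0.517 for Nefm and 0.996 for Stmn2, and the rest were higher than in GFP. In MyoD it was 3.89 for Dcx, 1.68 for Elavl4 and 1.34 for Tubb3, and the rest were lower. The 8 P19 markers summed to 2662 CPM in GFP and to 389.5 to 1152 CPM elsewhere, with Pou5f1 at 1227 CPM in GFP and Dppa5a and Zfp42 at or near 0 throughout. Sox2, of the same list, did not follow the sum. Its ratio over GFP was 1.27 in the chimera, 1.46 in WC, 1.65 in WCS, 1.06 in NeuroD2 and 0.77 in MyoD. The 10 skeletal muscle markers summed to 10810.3 CPM in MyoD, 1054 in the chimera, 1667 in chimera MOI 100 and 23 to 87.5 in the other libraries. Of the list for endocrine and chromaffin cells, which also release by exocytosis, the sum ran from 3.89 CPM in GFP to 1011 CPM in WCS MOI 100, led by Chgb, while Ins1 and Gcg had no count in any library. The sums of 8 glial markers (54.9 to 144 CPM) and of 8 fibroblast markers (32.6 to 119 CPM) had their highest values in WCS and in the chimera. Neither list moved as a whole. In WCS the ratio over GFP was 3.88 for Aldh1l1 and 2.53 for Mbp but 0.707 for Slc1a3. In the chimera it was 10.5 for Pdgfra and 4.85 for Col1a2 but 0.49 for Col1a1 and 0.105 for Thy1. The sum of 7 neural progenitor markers, most of it Vim and Nes, was 678 CPM in GFP, 957 in MyoD, 1236 in NeuroD2, 1263 in the chimera, 1514 in chimera MOI 100 and 1042 to 1227 in the mutants. Of these, Hes5 was 126-fold (95% interval for counting error 76.4 to 227), Olig2 223-fold (117 to 489.7) and Nkx6-1 30.6-fold (26.5 to 35.5) higher in NeuroD2 than in GFP. In such bulk RNA, fewer cells of a type and less RNA per cell cannot be told apart, and the part of these marker lists in the results below was not tested.

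To show the sequence beside the values, the 250 bases upstream of the annotated start are printed for 4 members that stand for the patterns described below. The windows are RefSeq's on GRCm38.p6, and the letters of the E-box, the CANNTG site that bHLH factors bind, are in capitals. Cplx2 (chr13:54302306-54302555, plus strand) and Rab3c (chr13:110280207-110280456, minus strand) had their low values in GFP and MyoD, Rimbp2 (chr5:128953487-128953736, minus strand) had its high values in the chimera libraries, and Syp (chrX:7638330-7638579, plus strand) was among the genes furthest from GFP.
Cplx2: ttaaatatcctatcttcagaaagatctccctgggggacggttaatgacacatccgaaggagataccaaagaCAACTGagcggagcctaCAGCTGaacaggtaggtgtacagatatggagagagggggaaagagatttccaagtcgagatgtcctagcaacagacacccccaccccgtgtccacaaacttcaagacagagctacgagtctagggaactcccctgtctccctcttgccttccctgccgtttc
Rab3c: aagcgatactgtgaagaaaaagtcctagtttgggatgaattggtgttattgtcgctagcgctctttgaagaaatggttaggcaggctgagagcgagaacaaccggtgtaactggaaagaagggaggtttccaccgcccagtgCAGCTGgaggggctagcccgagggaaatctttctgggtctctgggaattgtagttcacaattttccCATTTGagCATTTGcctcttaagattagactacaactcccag
Rimbp2: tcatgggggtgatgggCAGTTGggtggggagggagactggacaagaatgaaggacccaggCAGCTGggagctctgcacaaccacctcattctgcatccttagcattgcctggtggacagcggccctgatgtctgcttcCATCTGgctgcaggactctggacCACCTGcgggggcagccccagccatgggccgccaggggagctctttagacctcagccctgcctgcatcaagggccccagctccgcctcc
Syp: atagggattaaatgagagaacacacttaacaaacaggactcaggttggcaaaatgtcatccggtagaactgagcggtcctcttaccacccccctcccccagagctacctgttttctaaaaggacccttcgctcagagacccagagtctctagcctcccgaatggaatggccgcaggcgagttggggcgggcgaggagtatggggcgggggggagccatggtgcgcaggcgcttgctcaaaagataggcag
Cplx2 carried CAACTG at position -179 and CAGCTG at -162 from the start. Rab3c carried CAGCTG at -108 and CATTTG at -42 and -34. Rimbp2 carried CAGTTG at -234, CAGCTG at -190, CATCTG at -112 and CACCTG at -89. The Syp window held no CANNTG. Over the 38 windows (250 bases before to 50 after the start) found for 31 members, 76.3% held CANNTG, against 72.3% of 32851 windows of 27025 genes. CAGCTG, its own reverse complement, was in 28.9% of the member windows and 16.3% of all. CAGATG, searched with its reverse complement CATCTG, was in 15.8% against 17.2%. CAGGTG with CACCTG was in 23.7% against 20.2%. CATATG was in 0% of member windows and 3.91% of all. Searches covered both strands, the specific sites are also counted under CANNTG, and a match describes letters only.

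Between NeuroD2 and GFP, 17 of the 42 members were at least 4-fold higher in NeuroD2 and none was at least 4-fold lower. That size rule needs a 4-fold difference on log2(CPM + 0.5) and 5 CPM in the higher library; 5.61% of all genes at that level passed it upward and 2.05% downward. The median log2 difference of the 42 members was 1.79, and that of the 15547 genes with 1 CPM or more in a library was 0.03. By role, the rule was met by 5 of 9 SNARE and fusion genes, 5 of 8 calcium sensors, 2 of 9 vesicle membrane and synapsin genes, 5 of 11 Rab3 and active zone genes, and 0 of 5 endocytosis genes. Beside each ratio of CPM stands its 95% interval, exact (Clopper-Pearson) and conditional on the summed counts; it covers counting error only, since PCR reads are not independent molecules.

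**Figure D1:**
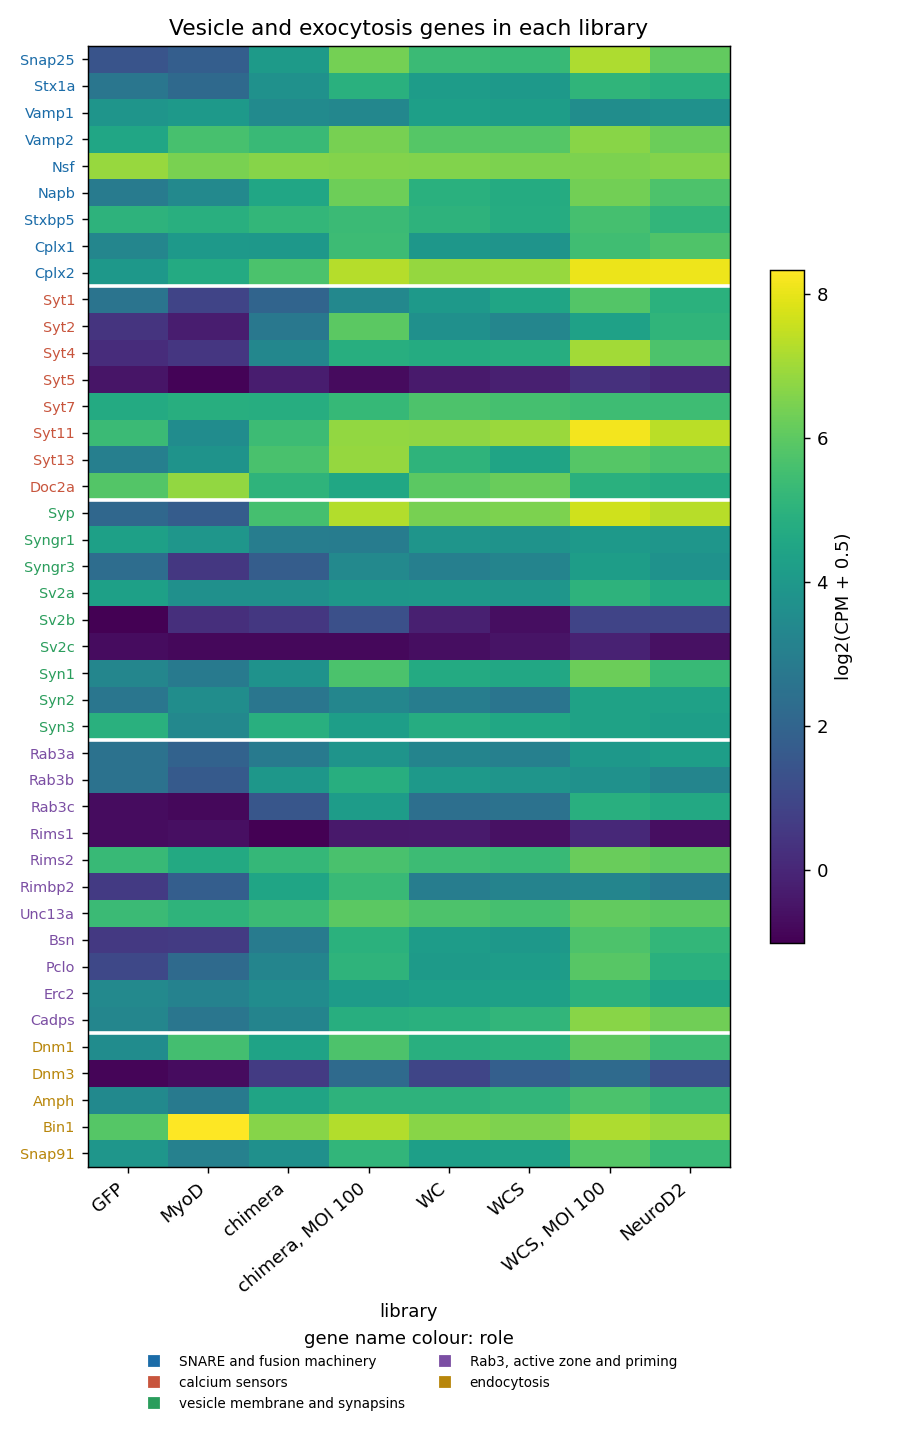
Level of each of the 42 genes (rows, name coloured by role) in each of the 8 libraries (columns), as log2(CPM + 0.5). Most rows are darkest in GFP and MyoD and brightest in WCS MOI 100, where 24 of 39 detected members peaked, while Nsf, Stxbp5 and Vamp1 hardly change colour and Bin1 is brightest in MyoD.

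Among the SNARE genes, Snap25, the membrane SNARE of neuronal exocytosis, was at 2.16 CPM in GFP, 2.96 in MyoD, 16.5 in the chimera, 83.6 in chimera MOI 100, 40 in WC, 38 in WCS, 143 in WCS MOI 100 and 67.8 in NeuroD2. GFP and MyoD were low and lay close together (ratio 1.37, 95% interval 0.994 to 1.87). All other libraries were above both, NeuroD2 by 31.3-fold over GFP (25.3 to 39.2). Its partner on the same membrane, Stx1a (syntaxin), had 5.79 CPM in GFP and 28.7 CPM in NeuroD2, a ratio of 4.96 (4.28 to 5.75). The vesicle SNARE Vamp2 was 3.35-fold higher in NeuroD2 (22.2 against 74.4 CPM, interval 3.1 to 3.63), short of the size rule. Its relative Vamp1 was 1.14-fold lower (interval 0.995 to 1.3), a difference within counting error.

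Cplx2, a complexin that clamps and assists the SNARE complex, was at 15.3 CPM in GFP, 25.4 in MyoD, 51.2 in the chimera, 157 in chimera MOI 100, 116 in WC, 119 in WCS, 265 in WCS MOI 100 and 271 in NeuroD2. It was 17.7-fold higher in NeuroD2 than in GFP (16.3 to 19.2) and, per kilobase of annotated exon, had the highest level of all members in NeuroD2, at 55 CPM per kilobase. Cplx1, the other complexin, was 5.9-fold higher (5.27 to 6.63). Both complexins were at their highest in NeuroD2, where 3 of 39 members peaked (Rab3a was the third), against 7.02% of all genes. For Cplx2, WCS MOI 100 was nearly as high (265 against 271 CPM). Napb, the beta-SNAP adaptor that brings NSF to the SNARE complex, was at 6.86 CPM in GFP, 10.1 in MyoD, 22.6 in the chimera, 75.6 in chimera MOI 100, 29.7 in WC, 25.9 in WCS, 81.3 in WCS MOI 100 and 52.3 in NeuroD2. NeuroD2 was 7.62-fold over GFP for Napb (6.71 to 8.69). The 2 genes of this role with the least spread were Nsf, the ATPase itself, whose highest library was 1.34 times its lowest (118 CPM in GFP, 87.9 in MyoD), and Stxbp5, tomosyn, a soluble SNARE-binding inhibitor, at 1.76 times.

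Of the calcium sensors, Syt4, an atypical synaptotagmin of dense-core and postsynaptic vesicles, was at 0.632 CPM in GFP, 0.883 in MyoD, 9.53 in the chimera, 28.1 in chimera MOI 100, 25.9 in WC, 27.7 in WCS, 129 in WCS MOI 100 and 52.1 in NeuroD2. The GFP and MyoD values rest on 26 and 23 counts, and NeuroD2 was 82.4-fold above GFP (56 to 127). Syt2, a fast calcium sensor of release, was at 0.827 CPM in GFP, 0.346 in MyoD, 6.22 in the chimera, 63.2 in chimera MOI 100, 12.4 in WC, 9.17 in WCS, 19.9 in WCS MOI 100 and 33.7 in NeuroD2. Chimera MOI 100 was the highest library for Syt2, and WCS MOI 100 was the highest for Syt4.

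Syt1, the main fast sensor of forebrain synapses, was at 5.5 CPM in GFP, 1.38 in MyoD, 3.5 in the chimera, 9.61 in chimera MOI 100, 15.9 in WC, 22.1 in WCS, 57 in WCS MOI 100 and 30.7 in NeuroD2. It was lower than in GFP in MyoD (3.98-fold, 2.79 to 5.82) and in the chimera (1.57-fold, 1.23 to 2.02), and higher in every other library. Syt11, a synaptotagmin that does not bind calcium, was at 40.4 CPM in GFP, 11.2 in MyoD, 41.7 in the chimera, 113 in chimera MOI 100, 109 in WC, 120.5 in WCS, 287 in WCS MOI 100 and 165 in NeuroD2. GFP and the chimera could not be told apart for Syt11 (ratio 1.03, 0.955 to 1.11), while MyoD was 3.62-fold below GFP (3.19 to 4.11).

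Syt13, another synaptotagmin without calcium binding, was at 7.71 CPM in GFP, 13.4 in MyoD, 49.6 in the chimera, 116 in chimera MOI 100, 33.2 in WC, 21.5 in WCS, 58.5 in WCS MOI 100 and 49.4 in NeuroD2. NeuroD2 was 6.4-fold over GFP for Syt13 (5.66 to 7.26), the chimera reached the same level, and both mutants without the MOI label were below it. Syt7, a slow, high-affinity sensor, varied little, from 25.5 CPM in GFP to 51.7 CPM in WC. Doc2a, a soluble calcium sensor with a pair of C2 domains, ran the other way from most members: 55.7 CPM in GFP, 113 in MyoD, 33.2 in the chimera, 22.9 in chimera MOI 100, 62.7 in WC, 73 in WCS, 29.4 in WCS MOI 100 and 26.9 in NeuroD2. In newer gene models (GENCODE M21, on GRCm38) 39.4% of its exon bases are shared with Ino80e on the opposite strand, a gene of up to 111 CPM here, and no source used here gives the strand setting of the counting, so the reads of the 2 genes cannot be told apart over that stretch.

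Among vesicle membrane genes, Syp (synaptophysin, a major protein of the vesicle membrane) was at 3.84 CPM in GFP, 2.8 in MyoD, 47.5 in the chimera, 151 in chimera MOI 100, 84.4 in WC, 89 in WCS, 203 in WCS MOI 100 and 161 in NeuroD2. It was 41.9-fold higher in NeuroD2 than in GFP (35.7 to 49.4) and already 12.4-fold higher in the chimera (10.5 to 14.7). In the same newer gene models, 16.8% of its exon bases overlap the antisense gene Gm14703, a gene of up to 91.4 CPM here. With the strand setting unknown, the reads of Syp and Gm14703 cannot be told apart over that stretch. Syngr3, a synaptogyrin, was at 4.5 CPM in GFP, 0.922 in MyoD, 2.9 in the chimera, 10.1 in chimera MOI 100, 7.64 in WC, 8.7 in WCS, 17.9 in WCS MOI 100 and 13 in NeuroD2. MyoD and the chimera were below GFP for Syngr3 and the other libraries above it.

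Syngr1, the other synaptogyrin, had its highest value in GFP: it was at 19 CPM there, 14.3 in MyoD, 7.31 in the chimera, 6.98 in chimera MOI 100, 14.2 in WC, 13.2 in WCS, 15.8 in WCS MOI 100 and 14.5 in NeuroD2. Only the 2 chimera libraries stood well below the rest. The vesicle transporter-like proteins Sv2a, Sv2b and Sv2c differed in level: Sv2a held 12.3 to 32.3 CPM, Sv2b had no count in GFP and at most 1.91 CPM elsewhere, and Sv2c stayed near 0.

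The synapsins tether vesicles to each other and to actin, and the 3 genes did not share a pattern. Syn1 was at 9.19 CPM in GFP, 6.76 in MyoD, 13 in the chimera, 50.4 in chimera MOI 100, 25.8 in WC, 23.8 in WCS, 75.2 in WCS MOI 100 and 38.8 in NeuroD2. Syn2 was at 5.86 CPM in GFP, 11.4 in MyoD, 5.8 in the chimera, 9.16 in chimera MOI 100, 7.32 in WC, 5.6 in WCS, 20.2 in WCS MOI 100 and 19.8 in NeuroD2. Syn1 was 4.23-fold higher in NeuroD2 than in GFP (3.76 to 4.76) and Syn2 3.38-fold (2.9 to 3.95). Syn3 was highest in GFP (30 CPM) and 1.64-fold lower in NeuroD2 (1.48 to 1.82), with 14.1% of its exon bases shared with the antisense gene Timp3. Timp3 had up to 81.9 CPM here, and the reads of Syn3 and Timp3 cannot be told apart over that stretch either.

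Rab3c, a vesicle GTPase, had the widest range of the members with a count in every library: 0.122 CPM in GFP, 0.0768 in MyoD, 2.34 in the chimera, 17.1 in chimera MOI 100, 4.85 in WC, 5.27 in WCS, 28.8 in WCS MOI 100 and 24.5 in NeuroD2. GFP and MyoD hold only 5 and 2 counts, so the ratio of 201 over GFP has an interval of 85.8 to 621. Rab3a, the most studied vesicle Rab3, was 3.47-fold higher in NeuroD2 (2.96 to 4.09), and Rab3b was highest in chimera MOI 100, at 28.4 CPM against 5.18 CPM in GFP.

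Bsn (bassoon) was at 0.948 CPM in GFP, 1.04 in MyoD, 6.82 in the chimera, 30.9 in chimera MOI 100, 17.2 in WC, 15 in WCS, 52.9 in WCS MOI 100 and 35.3 in NeuroD2. Pclo (piccolo) was at 1.53 CPM in GFP, 4.22 in MyoD, 9 in the chimera, 32.7 in chimera MOI 100, 16.3 in WC, 17.1 in WCS, 58.7 in WCS MOI 100 and 30 in NeuroD2. NeuroD2 was 37.2-fold over GFP for Bsn (27 to 52.6) and 19.6-fold for Pclo (15.1 to 25.7). Both scaffolds had the same order of libraries at the top and bottom, with GFP lowest and WCS MOI 100 highest, and for Bsn GFP and MyoD did not differ beyond counting error (ratio 1.09, 0.643 to 1.83).

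Cadps (CAPS, a priming factor of dense-core vesicles) was at 9.1 CPM in GFP, 5.84 in MyoD, 8.74 in the chimera, 28.6 in chimera MOI 100, 29.5 in WC, 34.4 in WCS, 102 in WCS MOI 100 and 78 in NeuroD2. The chimera did not differ from GFP beyond counting error for Cadps (1.04-fold lower, 0.881 to 1.23), NeuroD2 was 8.58-fold above GFP (7.68 to 9.6), and WC and WCS were as high as chimera MOI 100 or higher. Erc2, a scaffold that binds RIM and bassoon, was at 9.85 CPM in GFP, 8.18 in MyoD, 11.1 in the chimera, 16.7 in chimera MOI 100, 18.6 in WC, 19.2 in WCS, 30.6 in WCS MOI 100 and 22.4 in NeuroD2. Rims2 and Unc13a (Munc13, the priming factor that opens syntaxin) were at 24.7 CPM or more in every library and 1.69-fold (1.58 to 1.81) and 1.56-fold (1.46 to 1.67) higher in NeuroD2 than in GFP.

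Rimbp2, which links RIM to calcium channels, had a pattern of its own among the members: 0.997 CPM in GFP, 2.99 in MyoD, 21.6 in the chimera, 39.7 in chimera MOI 100, 7.19 in WC, 8.46 in WCS, 8.99 in WCS MOI 100 and 6.53 in NeuroD2. The 2 chimera libraries were above every other library, and WC, WCS and WCS MOI 100 were near NeuroD2. Syt6, a vesicle cycle gene outside the members, was also further above GFP in the chimera (18.3-fold, 10.8 to 33.4) than in NeuroD2 (5.84-fold, 3.28 to 11.1) or WCS (4.28-fold, 2.35 to 8.26).

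For endocytosis, Dnm1 (dynamin, which cuts vesicles from the membrane) was at 11.2 CPM in GFP, 45.5 in MyoD, 20.8 in the chimera, 52.9 in chimera MOI 100, 29.3 in WC, 30.6 in WCS, 66.5 in WCS MOI 100 and 43.1 in NeuroD2. Dnm1 was about as high in MyoD as in NeuroD2 (NeuroD2 1.06-fold lower, 0.974 to 1.14). Amph (amphiphysin, which recruits dynamin) was at 10.2 CPM in GFP, 6.76 in MyoD, 21.5 in the chimera, 31.8 in chimera MOI 100, 31.8 in WC, 34.6 in WCS, 51.4 in WCS MOI 100 and 38.1 in NeuroD2. Snap91 (AP180, a neuronal clathrin adaptor) was at 14.6 CPM in GFP, 8.14 in MyoD, 12.4 in the chimera, 34.4 in chimera MOI 100, 18.7 in WC, 19.5 in WCS, 58.3 in WCS MOI 100 and 38.3 in NeuroD2. The NeuroD2 over GFP ratios were 3.87 for Dnm1 (3.47 to 4.31), 3.75 for Amph (3.34 to 4.2) and 2.63 for Snap91 (2.38 to 2.91), none past the size rule. Dnm3 had at most 4.23 CPM.

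With MyoD in place of NeuroD2, 1 of the 42 members was at least 4-fold above GFP, which 3.63% of all genes were, and none was 4-fold below, against 1.21% of all genes. The 1 gene was Bin1 (amphiphysin 2), a membrane-bending protein that muscle uses to form its transverse tubules and of which counts per gene do not separate muscle and brain isoforms. Bin1 was at 58.5 CPM in GFP, 320.2 in MyoD, 97.7 in the chimera, 150.1 in chimera MOI 100, 100.3 in WC, 91.9 in WCS, 145 in WCS MOI 100 and 118 in NeuroD2. MyoD stood alone, 5.48-fold above GFP (5.23 to 5.73). Dnm1 was 4.08-fold above GFP in CPM (3.66 to 4.55) and just missed the rule on the log2(CPM + 0.5) scale. The median log2 difference of the members was -0.12, against -0.03 for all genes. Of 39 detected members, 18 were higher in MyoD than in GFP, near the share of all genes (48.1%). Several of the members that were lower lay far from GFP: Syngr3 was 4.88-fold lower (3.18 to 7.81) at a level under 5 CPM, Syt1 3.98-fold and Syn3 3.07-fold (2.68 to 3.52).

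**Figure D2:**
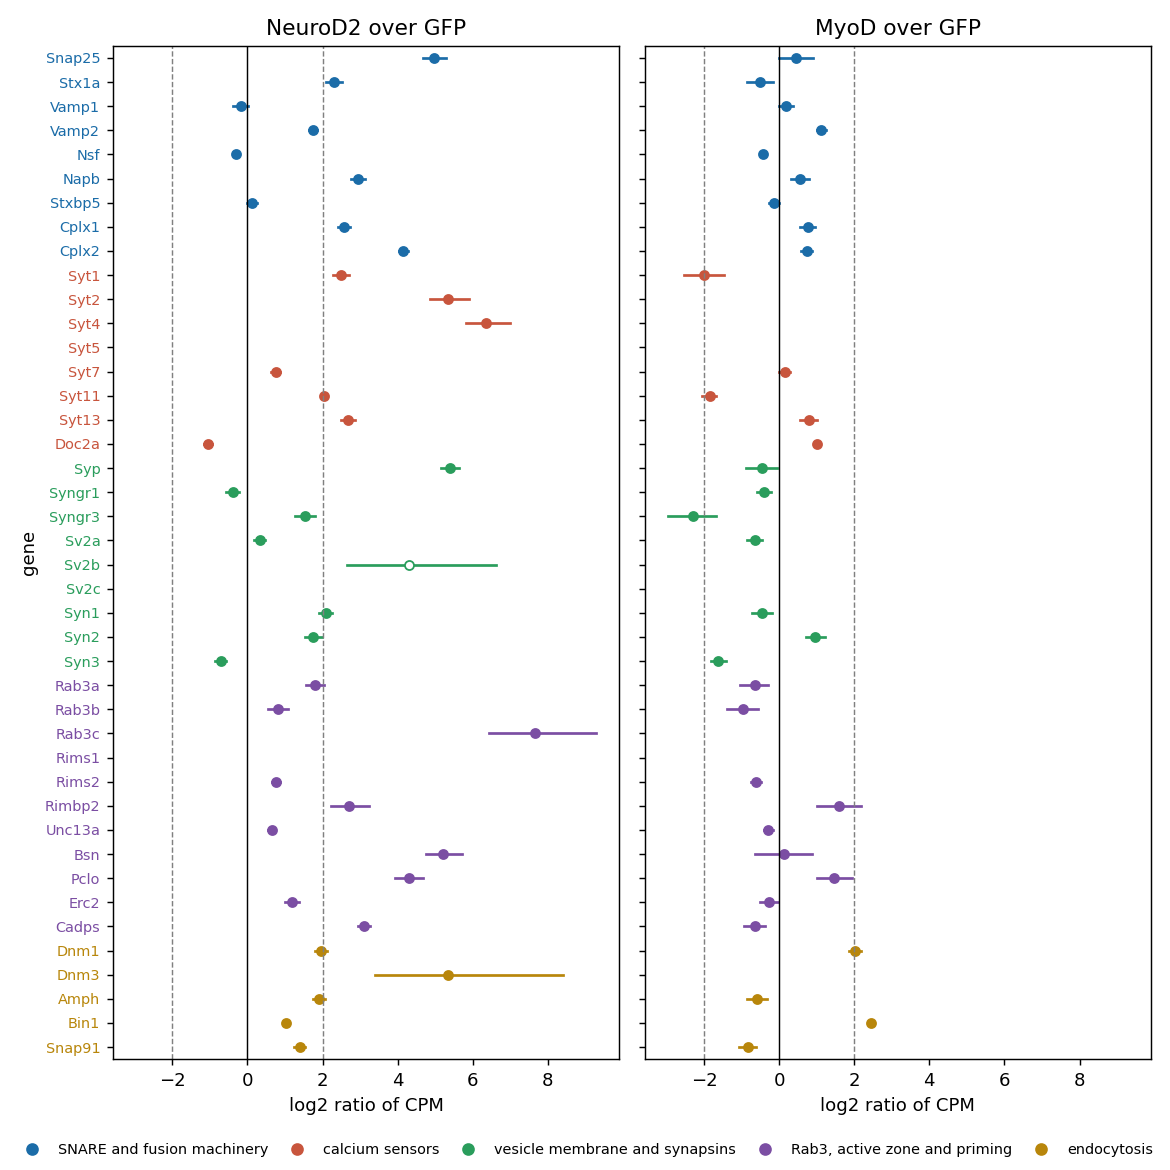
Log2 ratio of CPM over GFP for NeuroD2 (left) and MyoD (right), 1 gene per row coloured by role, with exact 95% intervals for counting error; genes under 1 CPM in both libraries are left blank, the open circle (Sv2b) is against the floor of 3 counts, and the dashed lines mark 4-fold. In NeuroD2 the points run far to the right, up to Rab3c at a ratio of 201, whereas in MyoD they lie on both sides of 0 with Bin1 furthest right.

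Set directly against MyoD, NeuroD2 was at least 4-fold higher for 18 of 42 members, where 5.61% of all genes passed, and at least 4-fold lower for 1, Doc2a, where 3.35% passed. Doc2a was 4.2-fold lower in NeuroD2 (3.87 to 4.55). The 18 include 4 genes short of 4-fold over GFP for which MyoD was lower than GFP: Syngr3, with a ratio of 14.1 (9.36 to 22.4), Amph with 5.63 (4.8 to 6.65), Rab3a with 5.46 (4.34 to 6.93) and Snap91 with 4.71 (4.06 to 5.48). The median log2 difference was 1.69 over the members and 0.01 over all genes.

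The 5 libraries of the chimera and its mutants were each set against the same GFP library, so these counts share their control and are given side by side only. In the chimera 8 of 42 members were at least 4-fold higher (2.84% of all genes): Snap25, Syt2, Syt4, Syt13, Syp, Rimbp2, Bsn and Pclo. WC had 10 (3.35% of all genes), which were those 8 with Cplx2 and Napb. WCS had 9 (3.32%), with Cplx2 and Rab3c in the list and Syt13 out of it, at 2.79-fold (2.44 to 3.21). Rab3c was also far above GFP in WC (39.9-fold, 16.7 to 125) and in the chimera (19.2-fold, 7.8 to 61.2). In these 2 libraries it was under the 5 CPM minimum of the rule. Chimera MOI 100 had 16 (6.87%), among them Rab3b and Dnm1, and WCS MOI 100 had 20 (6.97%), among them Vamp2, Amph, Syt1, Syt11 and Cadps. No member was at least 4-fold lower than GFP in any of the 5, where the shares of all genes were 0.945% for the chimera, 0.79% for WC, 1.18% for WCS, 3.2% for chimera MOI 100 and 3.83% for WCS MOI 100. Member medians on the log2 scale were 0.39 in the chimera, 1.18 in WC, 1.13 in WCS, 1.54 in chimera MOI 100 and 2.07 in WCS MOI 100, with all-gene medians from 0.01 to 0.04. The summed level of the 42 members followed, with 660.1 CPM in GFP, 934 in MyoD, 903 in the chimera, 1307 in WC, 1291 in WCS, 1864 in chimera MOI 100, 1975 in NeuroD2 and 2601 in WCS MOI 100. In MyoD, Bin1 held 320.2 of that sum against 58.5 CPM in GFP, and Doc2a 113 against 55.7 CPM.

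Between the mutants and the chimera without the MOI label, few members were 4-fold apart. Only Syt1 passed in WC over the chimera, at 4.54-fold (3.63 to 5.73), where 0.617% of all genes passed upward and 0.744% downward. Only Syt1 passed in WCS over the chimera as well, at 6.31-fold (5.07 to 7.93), against 0.778% of all genes upward and 0.989% downward; these 2 comparisons share the chimera library. With the MOI 100 label, Syt1 at 5.93-fold (5.22 to 6.75) and Syt4 at 4.59-fold (4.26 to 4.96) were higher in WCS, where 0.759% of all genes passed, and Rimbp2 was 4.41-fold lower (3.87 to 5.04), where 1.58% passed. Cadps came close at both labels, at 3.93-fold (3.41 to 4.56) without the label and 3.58-fold (3.32 to 3.87) with it.

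The 4 libraries of the chimera and WCS, each with and without the MOI 100 label, allowed the only test. In edgeR's quasi-likelihood test with construct and MOI label as terms and Benjamini-Hochberg adjustment, 17 of 40 tested members were higher in WCS than in the chimera and 2 were lower; of 16079 genes tested, 5.84% were higher and 5.49% lower. The fit has 1 residual degree of freedom, so its p-values measure how alike the difference was at both labels and not the spread between cultures. The median log2 fold change was 0.62 over the members and -0.01 over all genes. Myod1 reads were lower in WCS than in the chimera without the label (77.3 and 116 CPM) and higher with it (857 and 555 CPM), the neuron marker sum was higher in WCS at both labels, and the skeletal muscle sum was 1054 and 1667 CPM in the chimera libraries against 37.6 and 23 CPM in those of WCS. The part of any of these in the members' differences was not tested.

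Of the calcium sensors, 4 were higher in WCS. Syt1 had the largest difference of all members, 2.61 on the log2 scale (adjusted p = 0.0003), Syt4 had 1.89 (adjusted p = 0.0014), Syt11 had 1.44 (adjusted p = 0.00063) and Doc2a had 0.76 (adjusted p = 0.046), a call that was lost without the filter on low counts. Syt13 was lower, by a log2 fold change of -1.09 (adjusted p = 0.0028). Of the Rab3 and active zone genes, Cadps had 1.91 (adjusted p = 0.00036), Bsn 0.95 (adjusted p = 0.012), Rab3c 0.94 (adjusted p = 0.031), Pclo 0.88 (adjusted p = 0.0094) and Erc2 0.84 (adjusted p = 0.023). Rimbp2 was lower, at -1.75 (adjusted p = 0.0036).

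Both synaptogyrins were higher in WCS, Syngr3 by 1.18 (adjusted p = 0.026) and Syngr1 by 1.02 (adjusted p = 0.025), as were Syn1 (0.72) and Syp (0.66). The fusion genes that passed were Cplx2 at 0.99 (adjusted p = 0.0051) and Snap25 at 0.98 (adjusted p = 0.0049), and those of endocytosis were Snap91 at 0.71 and Amph at 0.69. Stx1a, Vamp2, Napb and Cplx1 did not pass, with log2 fold changes of 0.26, 0.42, 0.15 and -0.03. None of the 19 calls remained with the construct term alone (lowest member adjusted p = 0.29), nor without any 1 of the 4 libraries, where the MOI label cannot be kept as a term (lowest adjusted p = 0.083 to 0.42). Without WCS MOI 100 the sign turned for Rab3c, Snap25, Syp, Bsn, Snap91, Syn1 and Pclo, as the chimera arm then holds the only library with the MOI 100 label.

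**Figure D3:**
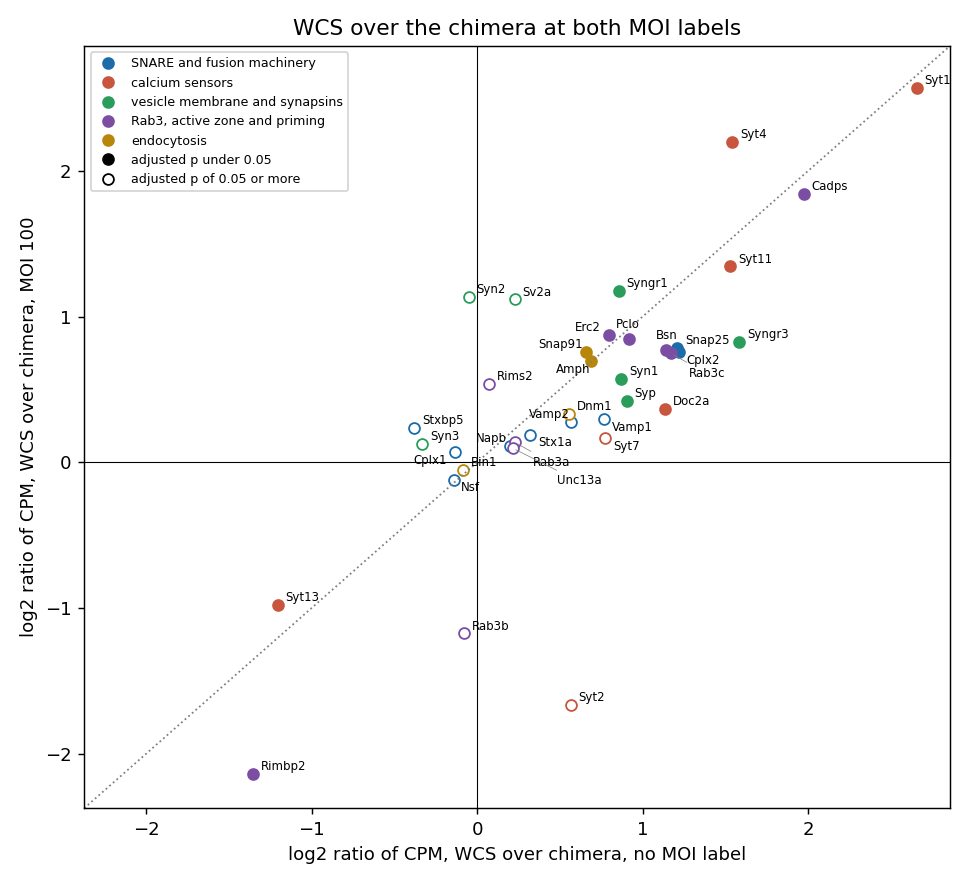
Log2 ratio of CPM of WCS over the chimera without the MOI label (x axis) and with the MOI 100 label (y axis) for members of at least 5 CPM in these libraries; filled points have an adjusted p under 0.05 in edgeR's quasi-likelihood test of construct, and the dotted line marks equal ratios. Syt1, Cadps, Syt4 and Syt11 lie at the upper right, Rimbp2 and Syt13 at the lower left, and Syt2 is above 0 on the x axis and below 0 on the y axis.

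WC, left out of that test, offers a further look at the mutant arm. With WC added to the WCS arm, an alternative chosen after the values were seen, edgeR called 20 members higher and 2 lower, where 10.2% of all genes were called higher and 8.27% lower. With WC in place of the WCS library without the MOI label, it called 17 higher and 2 lower, where the shares of all genes were 5.71% and 4.97%. The mutant arm there was WC without the label and WCS with it. Mutant and label could not be told apart within that arm. Both fits reuse libraries of the first one, the second of them 3 of its 4, so they are no independent support. The 19 members called above passed in the same direction under both.

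In the same fit, 27 of 40 tested members were higher with the label and 1 lower, where 13.4% of all genes were higher and 12.2% lower; the median log2 fold change was 1.2 over the members and 0.01 over all genes. Rab3c had the largest difference, 2.65 on the log2 scale (adjusted p = 0.00094), followed by Syt2 with 2.22 (adjusted p = 0.016), Snap25 with 2.12 (adjusted p = 0.00071), Bsn with 1.99 (adjusted p = 0.00094) and Syt4 with 1.91 (adjusted p = 0.0014). By role, 6 of 9 SNARE and fusion genes were higher, 5 of 8 calcium sensors, 4 of 8 tested vesicle membrane and synapsin genes, 8 of 10 tested Rab3 and active zone genes and 4 of 5 endocytosis genes. Doc2a was the member that was lower, at -0.93 (adjusted p = 0.014). Nsf (-0.03), Syngr1 (0.1) and Syt7 (0.16) had the smallest log2 differences among members over 5 CPM and did not pass. Myod1 reads were higher with the label by 2.86 on the log2 scale (adjusted p = 0.0015) and Neurod2 reads by 2.78 (adjusted p = 0.00083). Syt2 did not pass the DESeq2 Wald test of the label (log2 fold change 2.25). The neuron marker sum went from 772 to 2509.7 CPM in the chimera and from 2293 to 5357 CPM in WCS, and the P19 marker sum went from 885 to 389.5 CPM and from 1064 to 424 CPM; their part in the members' differences was not tested. No member was called with the MOI term alone (lowest adjusted p = 0.15) or without any 1 of the 4 libraries (lowest 0.27 to 0.46).

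In single pairs, 4 members were at least 4-fold higher in chimera MOI 100 than in the chimera (0.948% of all genes) and none lower (0.26%): Syt2 at 10.2-fold (8.67 to 12), Rab3c at 7.33-fold (5.62 to 9.7), Snap25 at 5.08-fold (4.59 to 5.64) and Bsn at 4.53-fold (3.86 to 5.34). In WCS MOI 100 over WCS it was 2 members (0.93% of all genes) and none lower (0.603%): Rab3c at 5.48-fold (4.61 to 6.53) and Syt4 at 4.66-fold (4.32 to 5.03).

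**Figure D4:**
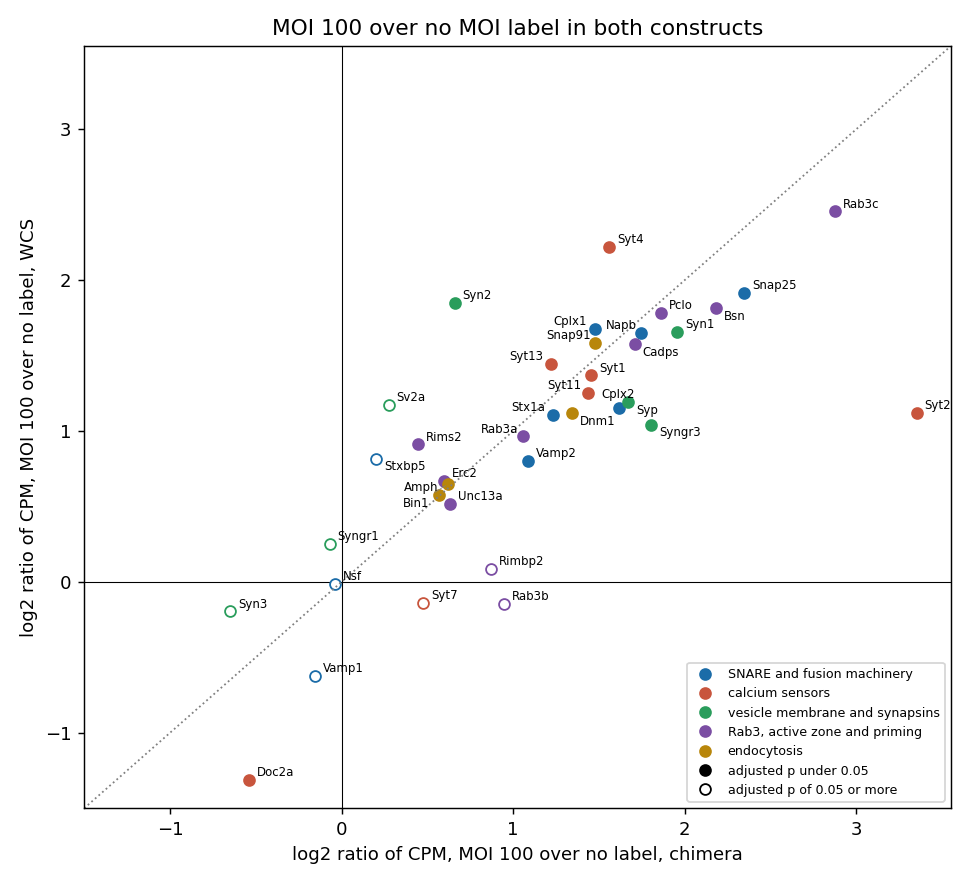
Log2 ratio of CPM with the MOI 100 label over without it, in the chimera (x axis) and in WCS (y axis), for members of at least 5 CPM in these libraries; filled points have an adjusted p under 0.05 in edgeR's quasi-likelihood test of the label. Many members lie near the dotted line of equal ratios at 1 to 2 on both axes, Syt2 lies far to the right at a ratio of 10.2 in the chimera and 2.17 in WCS, and Doc2a is below 0 on both.

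Several members have a relative that most cells use, and 11 pairs of a member and a relative were set side by side. Rab3d, set beside Rab3a, differs in kind, as it is a Rab3 of secretory cells and not of most cells. Snap23, the broadly used relative of Snap25, was at 63.7 CPM in GFP, 40.5 in MyoD, 51.2 in the chimera, 31.3 in chimera MOI 100, 49.4 in WC, 56.7 in WCS, 28.8 in WCS MOI 100 and 37.2 in NeuroD2. The ratio of Snap25 to Snap23 per kilobase of exon thus went from 0.0215 in GFP to 1.15 in NeuroD2 and 3.15 in WCS MOI 100. For Vamp2 over Vamp3 it went from 0.131 in GFP to 1.12 in NeuroD2, with Vamp3 2.55-fold lower in NeuroD2 (2.4 to 2.7). For Syp over Sypl it went from 0.0795 to 6.65, with Sypl 2-fold lower (1.86 to 2.14), and for Stx1a over Stx4a from 0.175 to 1.5.

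In 6 other pairs the relative stayed the more abundant one per kilobase in all 8 libraries. Napa stayed between 108 and 136 CPM, and Napb over Napa per kilobase was 0.0332 in GFP and 0.249 in NeuroD2. Dnm1 over Dnm2 was 0.143 and 0.405, Snap91 over Picalm 0.16 and 0.374, and Erc2 over Erc1 0.197 and 0.333. Vamp1 over Vamp3 stayed between 0.0314 and 0.0858 in all libraries. Rab3d, the Rab3 of secretory cells outside the brain, was lower than in GFP (20.2 CPM) only in MyoD (16.5 CPM). It was at 48.1 CPM in NeuroD2 and 122 CPM in chimera MOI 100. Rab3a over Rab3d was 0.489 in GFP and 0.715 in NeuroD2, and in every other library it was below GFP, from 0.214 (chimera MOI 100) to 0.431 (WC). The last pair crossed in 1 library: Syngr3 over Syngr2 was 0.0926 in GFP and 0.798 in NeuroD2, and 1.28 in WCS MOI 100, where Syngr3 was at 17.9 CPM and Syngr2 at 12 CPM.

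**Figure D5:**
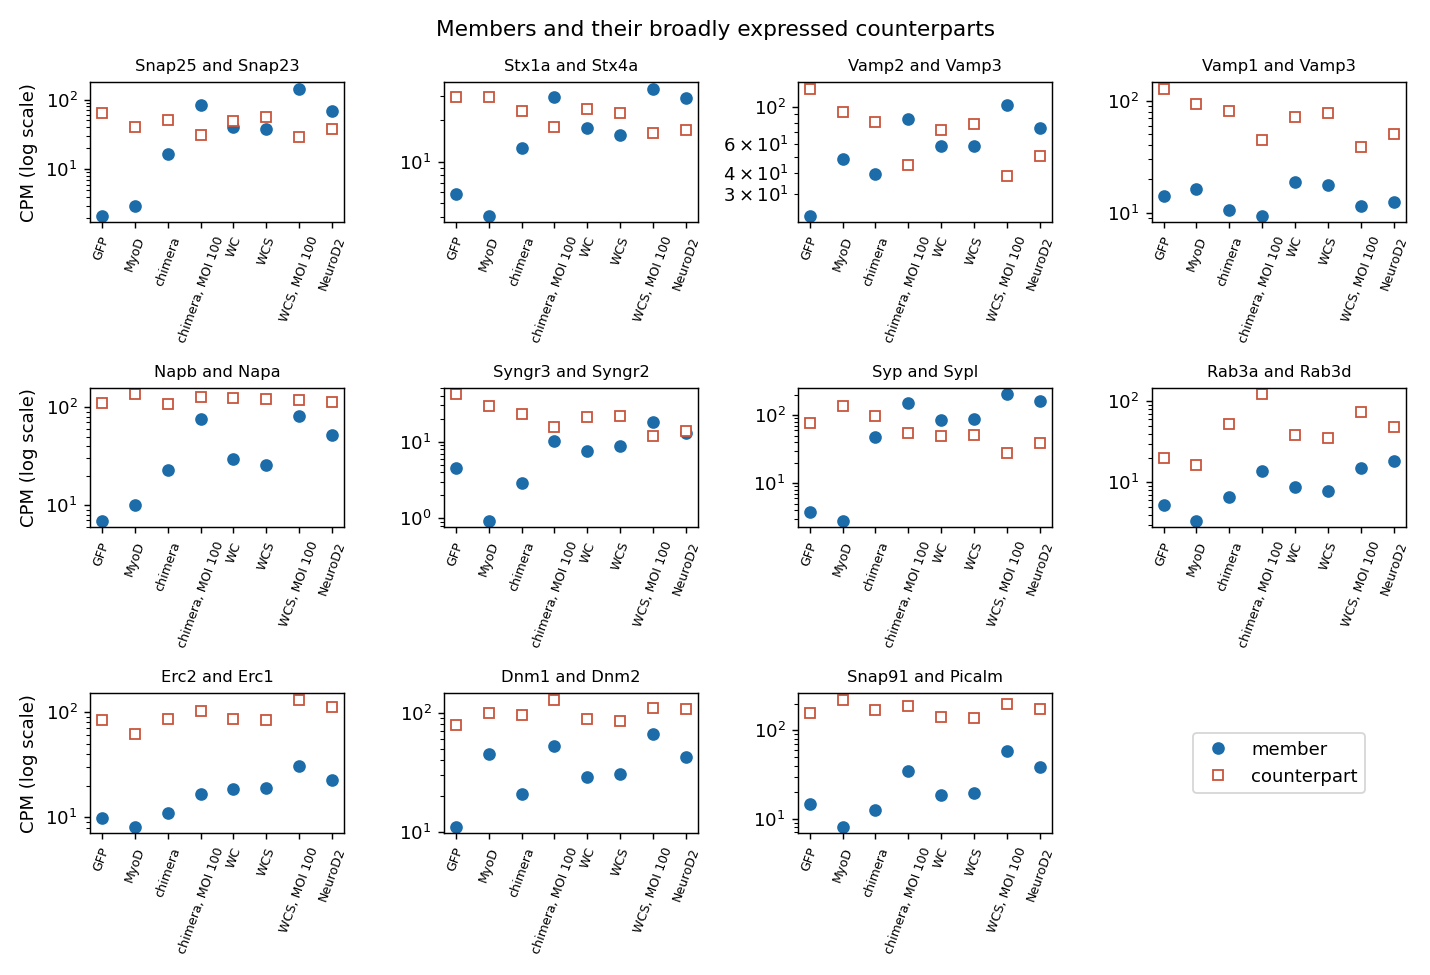
CPM on a log scale, with its own range in each panel, of 11 pairs of a member (filled circles) and its relative (open squares) in the 8 libraries. The relatives are broadly expressed genes, except Rab3d, a Rab3 of secretory cells. Snap25, Vamp2, Stx1a and Syp are below their relatives in GFP and above them in NeuroD2, chimera MOI 100 and WCS MOI 100, while Napb, Erc2, Dnm1, Snap91, Rab3a and Vamp1 stay below theirs throughout.

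Of 20 genes listed as relatives of this kind, Rab3d included, none was 4-fold higher or lower in NeuroD2 than in GFP, and their median log2 difference was -0.22. Of all genes, 5.61% were 4-fold higher and 2.05% lower. Syt8, of the 20, had no count in either library. Other libraries lay further from GFP for some of the 20. Stxbp2 was 6.55-fold lower in MyoD, 5.95-fold in WC, 6.21-fold in WCS and 6.7-fold in WCS MOI 100. Vamp8 was 4.08-fold lower in MyoD and 4.82-fold in WCS MOI 100, while Rab3d was higher in chimera MOI 100 (122 against 20.2 CPM). In the fit of the 4 libraries, 0 of the 20 were higher and 2 lower (Rab3d and Sypl) in WCS than in the chimera. The shares of all genes were 5.84% and 5.49%. With the MOI 100 label, 5 of the 20 were higher (Rab3d, Snap29, Esyt1, Erc1 and Dnm2) and 4 lower (Sypl, Snap23, Vamp3 and Syngr2). Here the shares of all genes were 13.4% and 12.2%. Among 54 further genes of the vesicle cycle, 10 were at least 4-fold higher in NeuroD2 than in GFP and 0 lower. The shares of all genes were 5.61% and 2.05%, and the median of the 54 was 0.62 on the log2 scale. The 5 with the largest ratios were Synpr (synaptoporin) at 119 (54.2 to 325), Doc2b at 89.6 (38 to 278), Apba2 (a Munc18-binding adaptor) at 26.2 (22.2 to 31.1), Nrxn3 (a neurexin) at 19.8 (11 to 39) and Svop at 12.7 (9.8 to 16.7). In the 4-library fit 12 of 46 tested were higher and 4 lower (Ppfia4, Syt6, Sypl2 and Rph3a) in WCS, against 5.84% and 5.49% of all genes. With the MOI 100 label 22 were higher and 1 lower, against 13.4% and 12.2% of all genes.

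Across all 8 libraries, 24 of the 39 detected members had their highest level in WCS MOI 100, where 20.4% of all genes did. Chimera MOI 100 was highest for 5 (Syt2, Syt13, Sv2b, Rab3b and Rimbp2; 12.9% of all genes), GFP for 3 (Nsf, Syngr1 and Syn3; 27%), NeuroD2 for 3 (7.02%), MyoD for 2 (Doc2a and Bin1; 17.3%), WC for 2 (Vamp1 and Syt7; 3.61%), and the chimera and WCS without the label for 0 (5.71% and 5.95%). The lowest level was in MyoD for 18 of the 39 members and in GFP for 15. The shares of all genes lowest in these libraries were not computed, so these counts have no background beside them. Of the 39, 31 were higher in WCS MOI 100 than in NeuroD2, against 45.8% of all genes, and 16 were higher in chimera MOI 100 than in NeuroD2, against 46.6% of all genes.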

How the data were processed

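Per the labels' protocols, RNA was selected with oligo-dT and read on an Illumina HiSeq. The authors deposited raw counts of reads per Ensembl gene, made with CASAVA 1.8.2, TopHat2 2.0.8 and genome build mm9 per the submitters' processing notes; how reads were counted, on which annotation and with what strand setting is not given in the sources used here. Counts per gene do not separate isoforms, nor a delivered sequence from the cell's own gene. Symbols came from GENCODE M21 (GRCm38), matched by Ensembl identifier for 87.5% of genes. Exon lengths and overlaps are also from those models, and promoter windows from RefSeq (GRCm38.p6), found for 31 of 42 members; no coordinate was moved between builds.

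Levels are CPM after TMM scaling over the 8 libraries (edgeR 4.0.16, R 4.3.3). Single libraries were compared by the size rule: 4-fold on log2(CPM + 0.5), with 5 CPM in the higher. On the 4 libraries of the chimera and WCS, edgeR's quasi-likelihood test was run after filterByExpr (construct and MOI label as terms, Benjamini-Hochberg adjustment over all genes, threshold 0.05); with 1 residual degree of freedom no standard errors are given. Values in every library are given for the 3 members of each role furthest from GFP in NeuroD2, for those called by construct and for those against the trend. Members, roles and gene lists were chosen with earlier results of these data known. Alternatives were other scalings, filters, pseudocounts and terms, the DESeq2 1.42.0 Wald test and each library left out. The steps were tested on simulated data. Intervals came from scipy 1.17.1 and figures from matplotlib 3.10.9, in Python 3.11.15.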

Additional observations from a re-analysis of the deposited data

Results flagged for a closer look

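For 3 members the same contrast pointed in opposite directions in 2 settings, each with 1 library per group, so that the difference between the settings was not tested. Syt2 was 3.17-fold lower in WCS than in the chimera with the MOI 100 label (ratio 0.315, 95% counting interval 0.288 to 0.345) and 1.48-fold higher without it (1.21 to 1.8), a gap of -2.23 on the log2 scale. Stxbp5 was higher in WCS than in the chimera with the label (ratio 1.18, 1.09 to 1.27) and lower without it (0.769, 0.699 to 0.846), a gap of 0.61. Syt7 was lower with the label than without it in WCS (ratio 0.906, 0.84 to 0.978) and higher in the chimera (1.39, 1.26 to 1.52), a gap of -0.61.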

How the results depend on the processing

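Counts of members under the size rule stayed within 1.5 times under other scalings and without a minimum level. A pseudocount of 2 CPM left 5 members in the chimera over GFP and 0 in WC over the chimera, since it shrinks the differences of low genes. Scaling to total counts shifted the all-gene median by up to 0.212 on the log2 scale (WCS MOI 100 over GFP) and 0.147 in NeuroD2 over GFP; of the members it turned Syn2, Syn3, Rims2 and Cadps in the chimera over GFP, Syn2 in WCS over GFP, Dnm1 in NeuroD2 over MyoD, Bin1 in WCS MOI 100 over chimera MOI 100 and Nsf in WCS MOI 100 over WCS, all near a ratio of 1. DESeq2 size factors turned Unc13a, Stxbp5, Rims2 and Nsf, 1 in each of 4 comparisons.

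In the 4-library fit, construct and MOI label called 19 and 28 members with the DESeq2 Wald test, 19 and 30 with DESeq2 size factors and 18 and 28 without a filter. With the tested term alone, 0 and 0 were called (3 and 18 at an unadjusted p under 0.05). Leaving out 1 library gave 0 to 0 for both terms (5 to 19 and 13 to 23 unadjusted), with the other term dropped by construction. For construct, leave-one-out log2 fold changes ranged over -0.87 to 2.88 for Rab3c, -0.38 to 2.48 for Snap25, -0.14 to 1.63 for Syp, -0.31 to 2.33 for Bsn, -0.25 to 1.67 for Snap91, -0.4 to 1.94 for Syn1 and -0.28 to 2.09 for Pclo, the lowest each time without WCS MOI 100; without the chimera Syp was -0.03 and Syn1 -0.01. For the MOI label, Syt1 ranged from -0.43, without WCS MOI 100, to 3.24. Arms left with 1 library are assumed to vary like the others.

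No paired analysis was possible because each group has 1 library. Depth limits the folds of Rab3c, Syt2, Syt4 and Dnm3, which had 5, 34, 26 and 2 counts in GFP.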
